A study of Gallus gallus with 6 samples.

Results

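The RAB vesicle traffic genes were compared between lens epithelial cells and lens fiber cells of the chick embryo. Members were chosen by symbol alone, as the entries whose names begin with RAB and a number, RABGAP, RABEP, RABGEF, TBC1D or a related RAB prefix. This rule found 92 of the 16561 entries of the expression table. They comprise 53 RAB GTPases, 29 genes classed as GTPase-activating proteins and 10 other genes. The last encode effectors, exchange factors and a subunit of the enzyme that prenylates RAB proteins. The class of GTPase-activating proteins holds the TBC1D, RABGAP and RAB3GAP symbols, and whether each of them acts on a RAB was not tested. The study profiled RNA of White Leghorn lenses at embryonic day 13 (E13), with no treatment named in the labels. Lenses were pooled within each biological replicate and microdissected. The epithelial libraries took in central and equatorial epithelium, and the fiber libraries took in peripheral and central fibers, so that neither is a single stage of differentiation. There were 3 libraries of each cell type.

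RAB proteins are small GTPases that sit on the membranes of the secretory and endocytic pathways and cycle between an active, GTP-bound form and an inactive, GDP-bound form. Exchange factors switch them on, GTPase-activating proteins (most of which carry a TBC domain) switch them off, and the active form recruits effectors such as tethers and motor adaptors. A prenyl anchor holds RABs in the membrane, and GDP dissociation inhibitors lift them out of it. Fiber cells of the lens elongate and lay down a great deal of new membrane, then remove their organelles, while the epithelium stays a polarized, dividing sheet.

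Expression was read as FPKM, fragments per kilobase of transcript scaled to the mapped fragments of the library, on which genes can be compared because transcript length is divided out. The lens markers followed the labels, as 8 of 9 tested fiber markers were higher in fiber cells and 10 of 11 tested epithelial markers were lower. Fiber marker FPKM summed to 2680 to 3908 in the epithelial libraries and to 12181 to 13054 in the fiber libraries, so that fiber transcripts were present in every epithelial library. Erythrocyte markers moved with the cell type as well, as 3 of 4 tested were higher in fiber cells and 1 was lower, and their sums were 14.5 to 31.8 FPKM in epithelial and 70.0 to 180 FPKM in fiber libraries. GYPC made up most of these sums. The globin HBZ was at most 0.0774 FPKM in the epithelial libraries and at 7.5, 6.73 and 5.29 in the fiber libraries. HBAA was at most 0.159 FPKM in the epithelial libraries and at 4.03, 6.59 and 2.22 in the fiber libraries. A further globin, HBBA, was at most 0.101 FPKM in any library. The part of blood cells in the values of the RAB traffic genes was not tested. Libraries of the same cell type correlated across genes at r = 0.976 to 0.982, and libraries of different types at 0.745 to 0.822. The median tested gene was itself lower in fiber cells, by a log2 fold change of −0.62, and counts are therefore also given after the libraries were centred on their median gene, as are the changes whose call that scaling ends.

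Across the module, more genes were lower in fiber cells than higher with the deposited scaling, and a single GTPase, RAB40B, had a far larger fold change than any other member called higher. Of the 92 entries, 80 had a mean of at least 0.5 FPKM and were tested with limma. A gene was called where its adjusted p lay under 0.05 and its fiber to epithelial change exceeded 0.4 in either direction on the log2(FPKM + 0.1) scale. By this rule 14 members were higher in fiber cells (17.5% of those tested, against 13.1% of all tested entries), 38 were lower (47.5% against 57.7%) and 28 were not called. The median log2 fold change was −0.39 for the module, and whether the module differs from all tested entries was not tested. The libraries of the cell types did not overlap for 66 members, 15 of them higher in fiber cells (16.1% of all tested entries were) and 51 lower (63.6% of all tested entries). After median centring the balance turned, with 31 members higher (30.2% of all tested entries were), 10 lower (29.3%) and a median of 0.22 for the module. Centring moved every log2 fold change up by the same amount. All 14 members called higher kept that call, as did all 1415 of the tested entries called higher. None of the 38 members called lower became higher by this change of scale, nor did any of the 6240 entries called lower. Of the 38 members, 28 lost the call, as did 3073 of the 6240 entries. In bulk RNA of this kind, fewer cells of a type and less RNA per cell cannot be told apart.

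By class, the counts are set beside 13.1% higher and 57.7% lower among all tested entries. Among 43 tested RAB GTPases, 10 were higher (23.3%), 17 were lower (39.5%) and 16 were not called, with a median log2 fold change of −0.22. Among 28 tested GTPase-activating proteins the counts were 4 (14.3%), 16 (57.1%) and 8, with a median of −0.45. None of the 9 tested genes of the remaining class was higher and 5 were lower (55.6%), with a median of −0.48. After median centring 21 GTPases were higher (48.8%) and 3 lower (6.98%), against 8 (28.6%) and 5 (17.9%) of the GTPase-activating proteins. In the remaining class 2 were then higher (22.2%) and 2 lower (22.2%). The centred shares of all tested entries were 30.2% and 29.3%, and the difference between the classes was not tested.

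**Figure D1:**
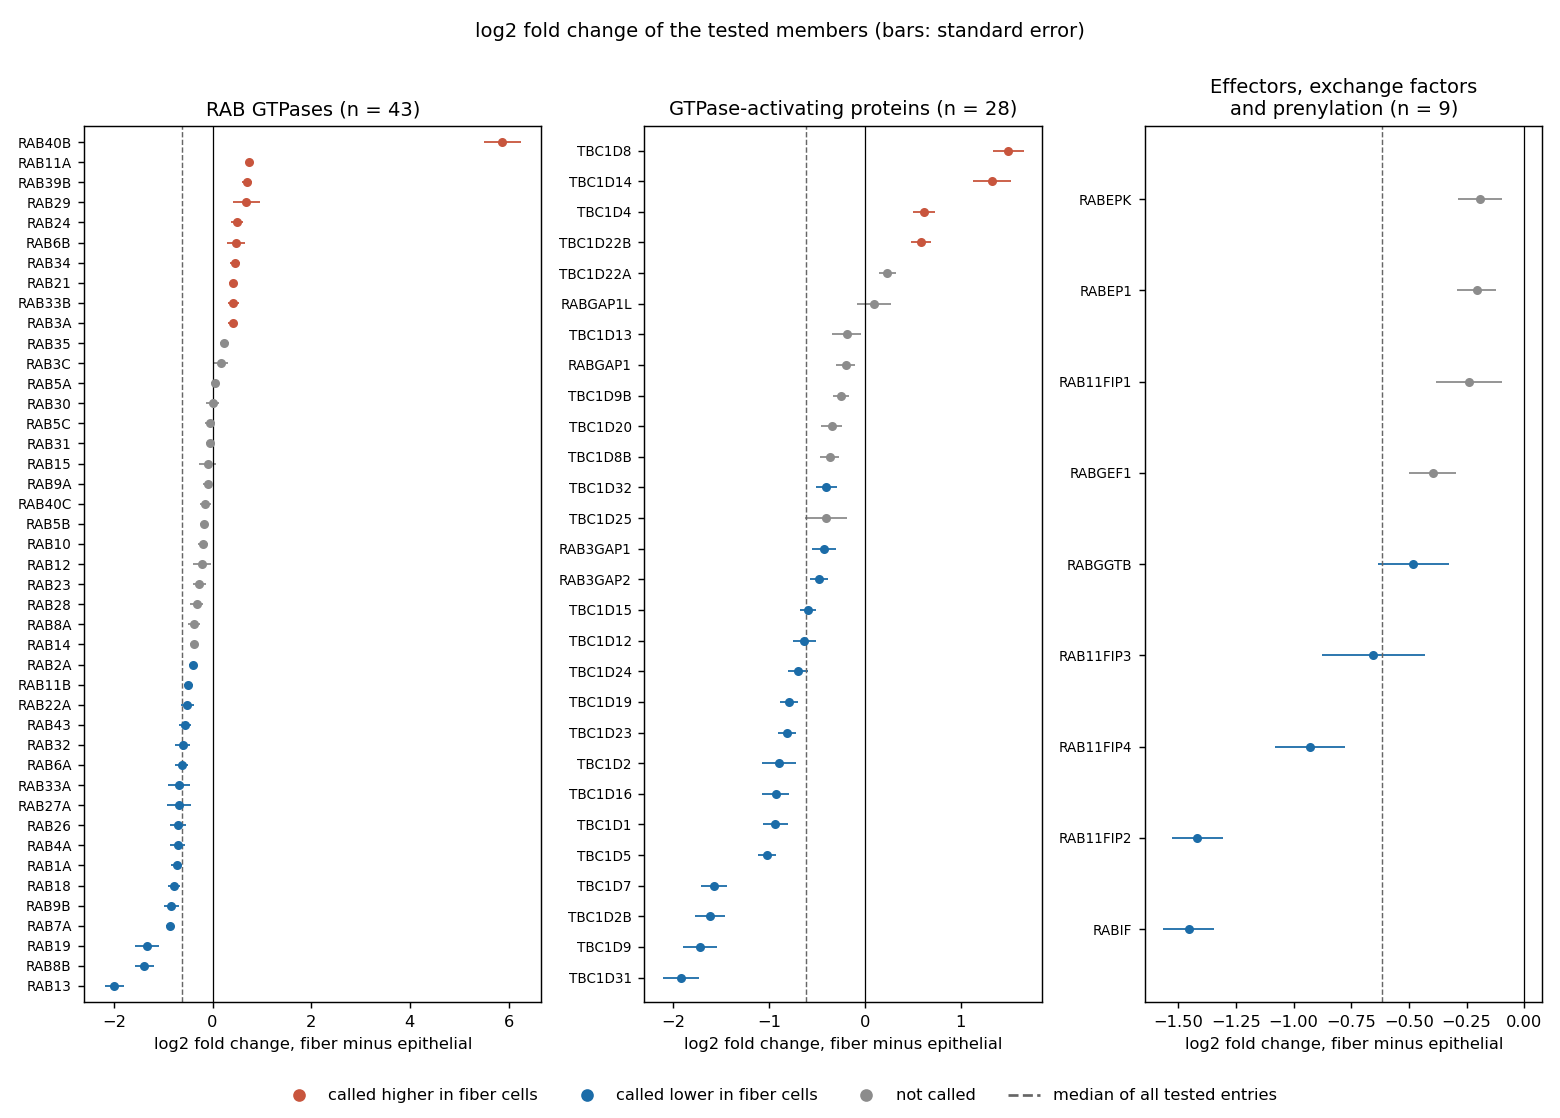
Log2 fold change, fiber minus epithelial cells on the log2(FPKM + 0.1) scale, of the 80 tested RAB traffic genes by class, each point being 1 gene with its standard error, coloured by its call, and the dashed line marking the median of all tested entries at −0.62. The panels have their own scales. RAB40B stands alone at 5.87, and no gene of the class of effectors, exchange factors and prenylation lies above 0.

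RAB40B was the member with the largest change. It belongs to a small RAB subfamily with a SOCS box, through which the mammalian protein joins a cullin ubiquitin ligase. Its FPKM were 0.822, 2.45 and 2.61 in epithelial libraries 1 to 3 and 101, 118 and 108 in the fiber libraries. The lowest fiber library thus lay far above the highest epithelial one. The mean was 1.96 ± 0.991 FPKM in epithelial cells and 109 ± 8.38 in fiber cells (SD, n = 3 each), a ratio of 55.5. The log2 fold change was 5.87 with a standard error of 0.37 (limma, Benjamini-Hochberg adjusted p = 6.5e-06), and it ranked 9 from the highest of 10818 tested entries. Leaving out any 1 library left it between 5.37 and 6.15. Its low value in epithelial library 1 went with the lowest fiber marker sum. Single fiber markers differed in their epithelial levels. BFSP1, a lens-specific intermediate filament protein of fiber cells, stood at 423, 825 and 677 FPKM in the epithelial libraries. In the fiber libraries BFSP1 stood at 3988, 3723 and 4264. LGSN stood at 2.17, 2.17 and 4.20 FPKM in epithelial and at 601, 721 and 575 in fiber libraries. HSF4 stood at 0.843, 1.32 and 1.73 FPKM in epithelial and at 39.7, 50.9 and 45.5 in fiber libraries. The part of fiber transcripts in the epithelial values of RAB40B was not tested. Its closest relative in the table, RAB40C, stood at 3.23, 3.51 and 3.23 FPKM in epithelial cells and at 2.76, 3.08 and 3.13 in fiber cells. That gene did not pass the test with the deposited scaling (log2 fold change −0.15, adjusted p = 0.24), and was higher after median centring (0.46).

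RAB40B also changed the make-up of the RAB transcripts. Summed over the 53 GTPases, FPKM were 545, 523 and 518 in the epithelial libraries and 552, 553 and 570 in the fiber libraries. The total was therefore close in the cell types, at 528 ± 14.3 and 558 ± 10.2 FPKM. Without RAB40B the sums fell from 526 ± 15.3 to 449 ± 13.6 FPKM, so that with the deposited scaling the direction of the total rested on this gene. The median tested gene was itself lower in fiber cells in that scaling (log2 fold change −0.62). Sums after centring were not taken, and the direction is not read beyond the deposited scaling. RAB40B held 0.375% ± 0.195 of RAB GTPase FPKM in epithelial cells and 19.5% ± 1.58 in fiber cells. The sum over GTPase-activating proteins was 159 ± 1.32 FPKM in epithelial and 121 ± 8.10 in fiber cells. The libraries did not overlap in any of these sums, and the exact two-sided permutation test gave p = 0.1 for each, which is the smallest that 3 libraries against 3 allow.

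**Figure D2:**
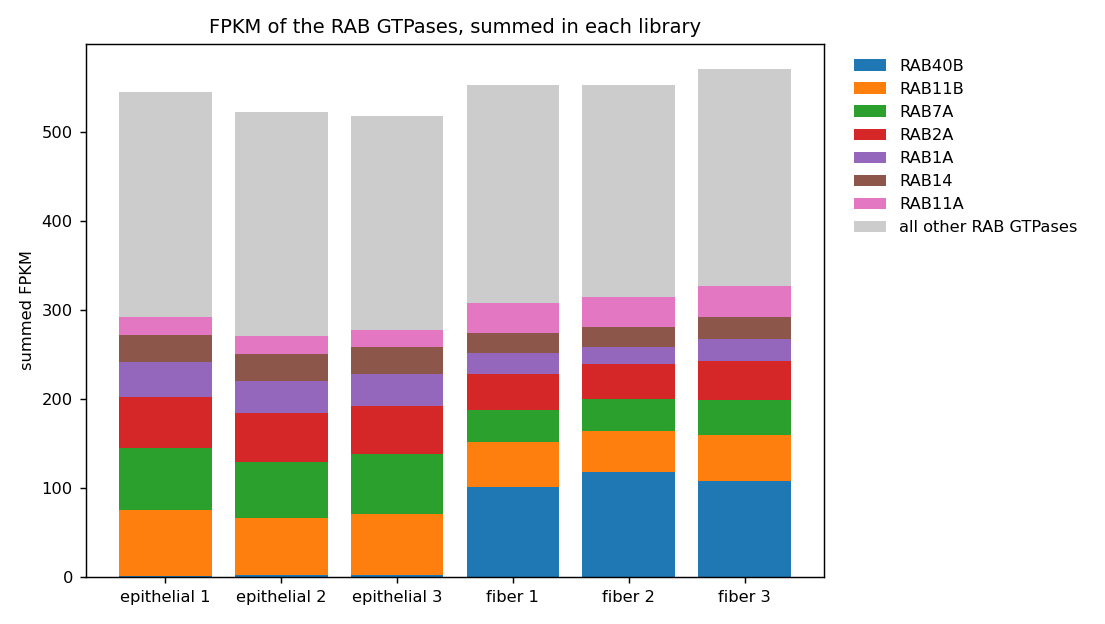
Summed FPKM of the RAB GTPases in each of the 6 libraries as stacked bars, with 7 GTPases in colour and all others in grey. RAB40B takes 18.3% to 21.3% of the bar in the fiber libraries and at most 0.505% in the epithelial libraries, while the whole bars stay between 518 and 570 FPKM.

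The other GTPases called higher were spread over several compartments. RAB11A, a regulator of the recycling endosome, stood at 20.7, 19.5 and 20.1 FPKM in epithelial cells and at 32.8, 33.3 and 35.1 in fiber cells. The values were tight within each cell type, and the log2 fold change was 0.75 ± 0.07 (SE, adjusted p = 4.8e-05). RAB39B, which has been tied to autophagy and is mutated in a human X-linked parkinsonism, went from 16.1, 15.6 and 13.6 FPKM to 23.0, 25.9 and 24.5 (0.70 ± 0.09, adjusted p = 0.00024). Both genes were called in each of the 19 alternative settings tried. The share of all entries that kept a higher call in all of them was not counted. RAB24, an unusual RAB linked to autophagy, had 3.15, 2.66 and 3.13 FPKM in epithelial cells and 4.50, 4.36 and 3.87 in fiber cells (0.50 ± 0.12, adjusted p = 0.0055). The fiber values of RAB24 lay above the epithelial ones in all 3 libraries.

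Early endosome and Golgi members among the higher genes showed smaller changes. RAB21, which acts in integrin endocytosis, was at 16.4, 16.4 and 16.3 FPKM in epithelial cells and at 20.6, 22.0 and 23.5 in fiber cells (0.42 ± 0.08, adjusted p = 0.0016). RAB33B, a Golgi RAB that binds an autophagy factor, went from 4.34, 4.83 and 4.07 to 6.21, 5.34 and 6.24 FPKM (0.42 ± 0.11, adjusted p = 0.0094). RAB34, a Golgi-associated RAB that also acts in ciliogenesis, went from 13.7, 13.0 and 11.4 to 18.2, 18.6 and 15.6 FPKM (0.46 ± 0.11, adjusted p = 0.0044). No library of one cell type reached the range of the other for these 3 genes, but each lay close to the 0.4 threshold. RAB21 lost its call without fiber library 3 (0.38), RAB34 without epithelial library 3 (0.38), and RAB33B without epithelial library 3 (0.36), fiber library 1 (0.38) or fiber library 3 (0.38).

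RAB3A, which marks synaptic vesicles and primes regulated exocytosis, was at 12.3, 13.4 and 12.3 FPKM in epithelial cells and at 15.7, 18.1 and 16.9 in fiber cells (0.41 ± 0.09, adjusted p = 0.0031). Its call was lost without epithelial library 1 (0.39), epithelial library 3 (0.39) or fiber library 2 (0.36). Transcripts on the list of neural retina and neuron markers moved with it. Of that list 11 of 13 genes were found and 6 were tested, 3 of them higher in fiber cells (TUBB3, SYP and NEFL) and none lower. The list summed to 15.7 to 18.9 FPKM in the epithelial libraries and to 41.9 to 50.9 in the fiber libraries. The other 3 tested genes, ELAVL4, SYT1 and STX1A, were not called, and the 5 below the filter, among them SNAP25 and STMN2, were under 0.5 FPKM in all 6 libraries. The part of neural transcripts in the values of RAB3A was not tested.

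For RAB29 and RAB6B the replicates were less firm. RAB29, which recruits the kinase LRRK2 to membranes in mammalian cells, was at 2.22, 3.06 and 2.85 FPKM in epithelial cells and at 5.15, 2.77 and 5.92 in fiber cells. Fiber library 2 fell within the epithelial range, and the call (0.69 ± 0.27, adjusted p = 0.046) was lost on leaving out any single library other than fiber library 2, with log2 fold changes of 0.48 to 0.78, against 1.01 without fiber library 2. RAB6B, a RAB6 form of neurons at the Golgi, went from 1.87, 1.35 and 2.08 to 2.24, 2.82 and 2.31 FPKM. Its call (0.47 ± 0.18, adjusted p = 0.046) was lost on leaving out any library other than epithelial library 3, with log2 fold changes of 0.30 to 0.53, against 0.59 without epithelial library 3. The table lists the values of RAB29 also under PM20D1 and SLC41A1, and those of RAB6B also under an unnamed entry, so that reads of these neighbours could not be told apart.

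**Figure D3:**
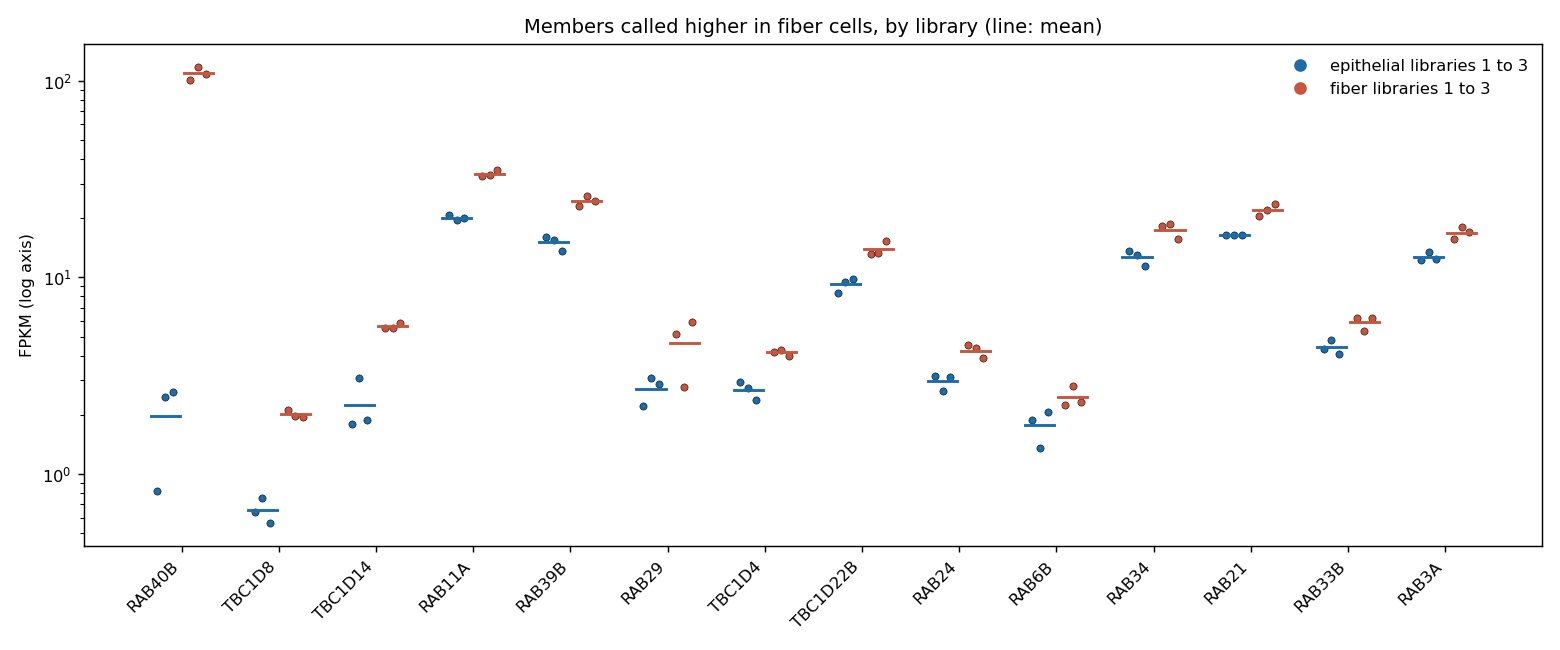
FPKM in each library of the 14 RAB traffic genes called higher in fiber cells, on a log axis, with points for the 3 epithelial and 3 fiber libraries and a line at each mean. The groups are separate for all genes except RAB29, where fiber library 2 at 2.77 FPKM lies among the epithelial values of 2.22 to 3.06.

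The GTPases with the highest levels were lower in fiber cells, RAB40B aside. RAB11B, the most abundant of them in epithelial cells and a relative of RAB11A on recycling endosomes, was at 74.5, 64.2 and 68.1 FPKM there and at 50.5, 45.8 and 51.2 in fiber cells (−0.49 ± 0.09, adjusted p = 0.0012). RAB7A, which directs late endosomes to lysosomes, was at 69.5, 62.7 and 67.6 FPKM in epithelial cells and at 35.3, 35.8 and 39.3 in fiber cells (−0.86 ± 0.08, adjusted p = 4.0e-05). Neither gene's groups overlapped. RAB1A and RAB2A act between the endoplasmic reticulum and the Golgi. RAB1A went from 39.7, 35.8 and 36.0 to 23.3, 19.5 and 24.6 FPKM (−0.73 ± 0.10, adjusted p = 0.00033), and RAB2A from 56.9, 54.5 and 53.4 to 40.9, 39.4 and 44.4 (−0.40 ± 0.08, adjusted p = 0.0018). RAB2A lay at the threshold and lost its call without epithelial library 1 (−0.38), fiber library 1 (−0.39) or fiber library 2 (−0.37). RAB14, a RAB of early endosomes and the Golgi, was at 30.1, 31.3 and 30.0 FPKM and at 23.3, 22.7 and 24.2, and its log2 fold change of −0.38 fell short of the threshold except without fiber library 3 (−0.41). After median centring, none of these 5 genes was called, with centred log2 fold changes of −0.25 for RAB7A, −0.12 for RAB1A, 0.12 for RAB11B, 0.20 for RAB2A and 0.23 for RAB14. RAB11A, which was called higher, had nearly the same mean over the 6 libraries as RAB14, at 26.9 FPKM.

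RAB13 and RAB8B, which carry membrane proteins to the cell surface and to cell junctions, had the largest decreases of the GTPases. RAB13 was at 1.43, 1.21 and 1.38 FPKM in epithelial cells and at 0.248, 0.291 and 0.251 in fiber cells, a ratio of means of 5.09 in favour of epithelial cells. Its log2 fold change was −1.99 ± 0.19 (adjusted p = 4.0e-05), and −1.38 after centring. RAB8B went from 7.87, 9.68 and 10.7 to 3.54, 2.74 and 4.52 FPKM (−1.38 ± 0.19, adjusted p = 0.00028). The groups of both genes were far apart. RAB19 was the only other GTPase called lower after centring as well, at 0.888 ± 0.0269 FPKM in epithelial and 0.300 ± 0.0981 in fiber cells.

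The counts by compartment depended on the scaling, and are to be read against 13.1% higher and 57.7% lower among all tested entries. Of 8 tested GTPases of early endosomes, 1 was higher and 2 lower, and RAB5A, RAB5B and RAB5C, which control entry into these endosomes, were not called. RAB5A, for example, was at 23.1 ± 1.56 FPKM in epithelial and 23.8 ± 0.955 in fiber cells. After centring RAB5A (0.65), RAB5B (0.43) and RAB5C (0.56) were each called higher, as were 30.2% of all tested entries. KCNH4 is listed with the same values as RAB5C. Of 11 GTPases of the endoplasmic reticulum and Golgi, 3 were higher and 7 lower. Of 7 on late endosomes, lysosomes and related organelles, 3 were higher and 3 lower, and of 9 in recycling and polarized exocytosis, 1 was higher and 3 lower. The 4 tested GTPases of regulated secretion gave 1 higher and 2 lower, and RAB23 and RAB28, the pair with ciliary roles, were not called. After centring the counts were 5 higher and 0 lower for early endosomes, 4 and 1 for the endoplasmic reticulum and Golgi, 4 and 0 for late endosomes and related organelles, 4 and 2 for recycling and exocytosis, and 2 and 0 for regulated secretion. Over all tested entries 30.2% were then higher and 29.3% lower.

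RAB27A and RAB32 act in pigment cells, where they carry melanosomes or their cargo. RAB27A had 6.24 ± 0.445 FPKM in epithelial and 4.03 ± 1.56 in fiber cells (−0.68, adjusted p = 0.028), with fiber library 1 at 5.79 inside the epithelial range, and the table lists the same values under PIGBOS1. Its call was lost without epithelial library 1 (−0.64), epithelial library 3 (−0.67), fiber library 2 (−0.46) or fiber library 3 (−0.61). RAB32 had 2.04 ± 0.346 and 1.30 ± 0.0631 FPKM (−0.60, adjusted p = 0.0079). Neither was called after centring (RAB27A −0.073, adjusted p = 0.79, and RAB32 0.0040, adjusted p = 0.98). The 10 pigment cell markers summed to 4.46 to 7.58 FPKM in epithelial and 1.89 to 3.44 in fiber libraries. Of the 3 tested, SLC45A2 was lower in fiber cells (1.51 ± 0.340 to 0.219 ± 0.111 FPKM, −2.37). MITF, at a mean of 1.7 FPKM in both cell types, and PMEL (0.664 and 0.373) were not called. Among those below the filter, DCT reached 1.16 FPKM in the epithelial libraries and RPE65 0.998. The pigment enzymes TYR and TYRP1 were at or below 0.475 FPKM in every library and listed at 0 in all fiber libraries. The part of pigment cells in the values of RAB27A and RAB32 was not tested.

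Among the GTPase-activating proteins, 4 were higher in fiber cells. TBC1D8, a TBC protein whose RAB is poorly known, was at 0.644, 0.751 and 0.561 FPKM in epithelial cells and at 2.12, 1.98 and 1.95 in fiber cells (1.50 ± 0.16, adjusted p = 7.4e-05). TBC1D14, which binds RAB11 and acts in autophagy in mammalian cells, went from 1.80, 3.06 and 1.88 to 5.54, 5.52 and 5.83 FPKM (1.33 ± 0.19, adjusted p = 0.00037). Both were called in all 19 alternative settings, for which the share over all entries was not counted. TBC1D4, also named AS160, restrains the glucose transporter GLUT4 in muscle and fat, and went from 2.93, 2.72 and 2.39 to 4.19, 4.29 and 3.99 FPKM (0.62 ± 0.12, adjusted p = 0.0015). TBC1D22B went from 8.34, 9.49 and 9.79 to 13.1, 13.3 and 15.2 FPKM (0.59 ± 0.10, adjusted p = 0.00099). In all 4 genes every fiber library lay above every epithelial one, and an unnamed entry of the table holds the same values as TBC1D4.

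Of the GTPase-activating proteins 57.1% were lower, against 57.7% of all tested entries. TBC1D31, found at centriolar satellites in mammalian cells, was at 3.06, 2.60 and 2.35 FPKM in epithelial cells and at 0.765, 0.491 and 0.653 in fiber cells (−1.92 ± 0.19, adjusted p = 5.1e-05). TBC1D9, which has a calcium-binding EF hand, went from 10.6, 8.94 and 10.4 to 3.12, 2.23 and 3.66 FPKM (−1.72 ± 0.18, adjusted p = 5.8e-05). These were the strongest decreases of the class. TBC1D2B, which acts on RAB22 in mammalian cells, went from 4.72, 4.67 and 4.33 to 1.52, 1.12 and 1.66 FPKM (−1.62 ± 0.16, adjusted p = 4.4e-05). TBC1D7 is known as a subunit of the tuberous sclerosis complex, which acts on RHEB rather than on a RAB. It went from 4.81, 3.85 and 4.05 to 1.45, 1.20 and 1.42 FPKM (−1.57 ± 0.14, adjusted p = 2.9e-05). With TBC1D5, a regulator of RAB7 and the retromer at 8.85 ± 0.167 and 4.31 ± 0.254 FPKM, these were the 5 GTPase-activating proteins still lower after centring.

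Of the genes that serve RABs in other ways, none was higher with the deposited scaling. RABIF, a chaperone of secretory RABs also known as MSS4, was at 22.1, 18.9 and 20.5 FPKM in epithelial cells and at 8.13, 6.51 and 7.65 in fiber cells (−1.45 ± 0.11, adjusted p = 1.4e-05), although the table gives TUBA3E the same values. RAB11FIP2, an effector that links RAB11 to a myosin V motor, went from 35.5, 29.8 and 34.7 to 12.9, 11.0 and 13.4 FPKM (−1.42 ± 0.11, adjusted p = 1.5e-05). Both remained lower after centring, at −0.85 and −0.81. RAB11FIP3 (−0.65), RAB11FIP4 (−0.93) and RABGGTB, the catalytic subunit of the RAB prenyl transferase (−0.48), were also lower, but not after centring. SGF29 and MSH4 are listed with the same values as RABGGTB. RAB11FIP3 lost its call without epithelial library 1 (−0.51) or fiber library 2 (−0.42), and RABGGTB without epithelial library 1 (−0.42), epithelial library 2 (−0.47) or fiber library 2 (−0.34). RAB11FIP1, RABEP1, RABEPK and RABGEF1 were not called, with log2 fold changes of −0.19 to −0.40. After centring RABEP1 (0.40) and RABEPK (0.42) were higher, as were 30.2% of all tested entries. RABGEF1 passed the threshold without epithelial library 1 (−0.44), fiber library 1 (−0.44) or fiber library 3 (−0.40).

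**Figure D4:**
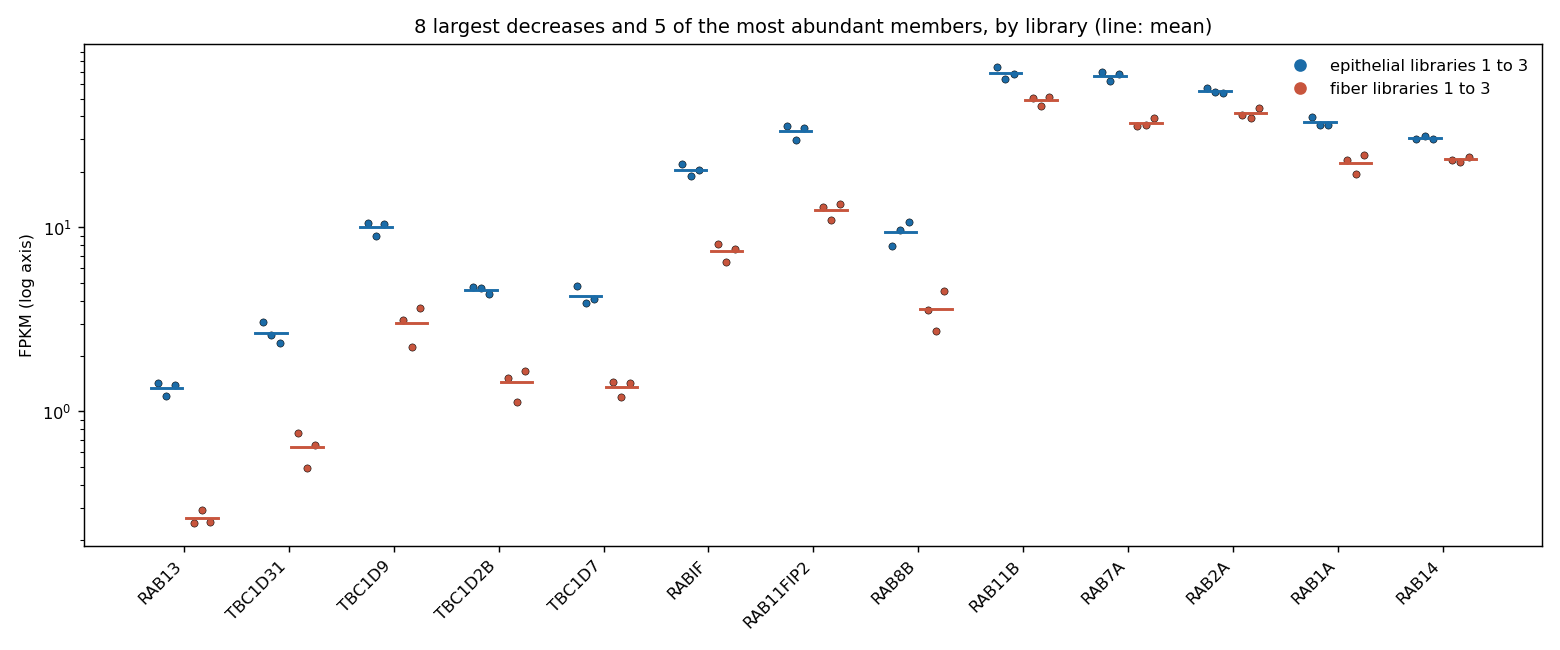
FPKM in each library of the 8 RAB traffic genes with the largest decreases among those whose libraries did not overlap, and of 5 abundant GTPases, on a log axis, with points for the 3 epithelial and 3 fiber libraries and a line at each mean. For each gene all fiber libraries lie below all epithelial ones, with a ratio of means of 5.09 for RAB13, 2.62 for RAB8B and 1.30 for RAB14.

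RAB18 and its regulators RAB3GAP1, RAB3GAP2 and TBC1D20 are the genes mutated in human Warburg Micro syndrome, in which congenital cataract occurs. The RAB3GAP pair, named for RAB3, also serves as the exchange factor of RAB18. RAB18, found on the endoplasmic reticulum and lipid droplets, was at 27.6, 25.5 and 21.4 FPKM in epithelial cells and at 16.3, 13.5 and 13.6 in fiber cells (−0.78 ± 0.12, adjusted p = 0.00054). RAB3GAP1 went from 7.88, 7.51 and 7.44 to 5.98, 4.74 and 6.30 FPKM (−0.43 ± 0.12, adjusted p = 0.012), and lost its call without fiber library 2 (−0.30). RAB3GAP2 went from 5.76, 6.07 and 5.77 to 4.22, 3.91 and 4.42 FPKM (−0.48 ± 0.10, adjusted p = 0.0021). Their partner TBC1D20, at 4.32, 4.60 and 4.19 and at 3.11, 3.52 and 3.63 FPKM, was not called (−0.35 ± 0.11, adjusted p = 0.019). All 4 genes had fiber libraries below the epithelial ones without overlap, as did 63.6% of all tested entries. None was called after median centring, with −0.17 for RAB18 and 0.13 to 0.26 for the others.

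Ratios of related genes within a library do not depend on how libraries are scaled to each other. Of 37 listed pairs, 22 had both genes tested. In 16 the log2 ratios of the cell types did not overlap, 8 with the first gene gaining in fiber cells and 8 with the other. Among single tested entries, 16.1% were higher and 63.6% lower in fiber cells without overlap. The share among pairs of unrelated genes was not counted, so that the 16 are not read as a trait of related genes. The exact permutation test cannot pass the threshold with 3 libraries against 3, and gave p = 0.1 for each of the 16, or 0.14 after Benjamini-Hochberg adjustment over the 22 pairs. The largest shift was that of RAB40B over RAB40C, whose log2 ratio went from −0.88 ± 0.85 to 5.14 ± 0.07. TBC1D12 over TBC1D14, both of which bind RAB11, went from 0.94 ± 0.56 to −1.01 ± 0.03, which reversed the order of the 2 genes. TBC1D8 over TBC1D8B went from −3.38 ± 0.14 to −1.51 ± 0.13.

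TBC1D1 and TBC1D4 both regulate glucose transporter traffic, and their order was also reversed. TBC1D1 was at 4.60, 4.23 and 4.91 FPKM in epithelial cells and at 2.47, 2.04 and 2.56 in fiber cells, below TBC1D4 there, and the log2 ratio went from 0.75 ± 0.22 to −0.80 ± 0.22. The table gives PGM2 the same values as TBC1D1 and NOC3L the same as TBC1D12. TBC1D9 over TBC1D9B went from −0.44 ± 0.15 to −1.92 ± 0.28. RAB11A over RAB11B, a pair chosen after its values were seen, shifted by 1.23 on the log2 scale. The FPKM ratio of RAB11A to RAB11B was 0.278, 0.303 and 0.295 in epithelial cells and 0.650, 0.727 and 0.686 in fiber cells. How reads that match both members of a pair were assigned is not given in the sources used here.

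**Figure D5:**
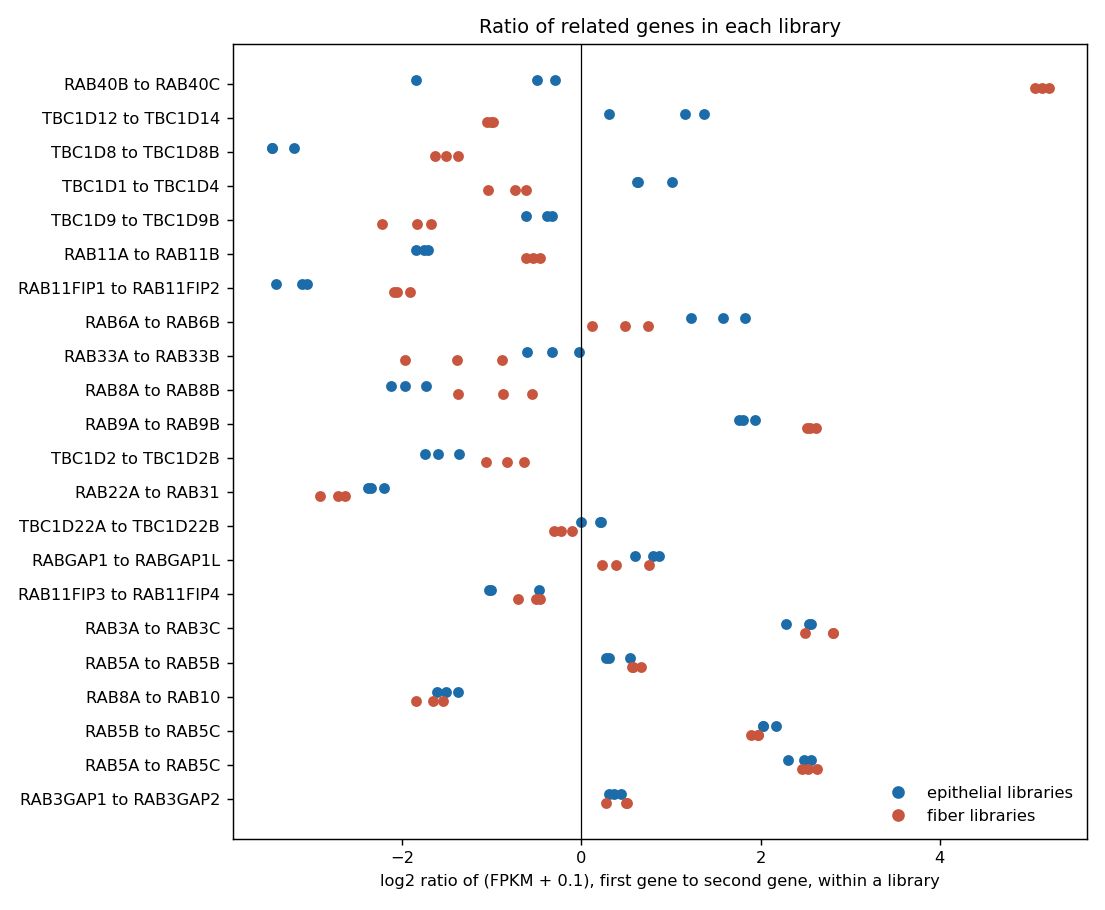
Log2 ratio of FPKM + 0.1 between related RAB traffic genes within each library, for the 22 tested pairs, with points for the 3 epithelial and 3 fiber libraries. RAB40B over RAB40C shifts by 6.02 and TBC1D12 over TBC1D14 by −1.96, while RAB5A over RAB5C and RAB3GAP1 over RAB3GAP2 overlap between the cell types.

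Other genes of the RAB cycle, listed by function outside the name rule, gave shares close to those of all tested entries with the deposited scaling. Of 128 listed entries 114 were tested, with a median log2 fold change of −0.51. Of these, 11 were higher (9.65%, against 13.1% of all tested entries) and 66 lower (57.9% against 57.7%). After centring 37 were higher (32.5% against 30.2%) and 23 lower (20.2% against 29.3%). Among 7 genes of membrane delivery and recycling, 1 was higher (14.3%) and 3 lower (42.9%). GDI2, a GDP dissociation inhibitor, was at 84.2, 88.1 and 83.1 FPKM in epithelial cells. In fiber cells it was at 112, 120 and 119 (0.46 ± 0.07, adjusted p = 0.00062), and another entry holds the same values. CHM, the escort protein that presents RABs for prenylation and is mutated in choroideremia, went the other way, from 3.75 ± 0.754 to 2.33 ± 0.256 FPKM (−0.65 ± 0.17, adjusted p = 0.0068). RABL3 (−1.32) and IFT22 (−0.92) were lower as well. After centring RABL3 kept its call (−0.71), while CHM (−0.045) and IFT22 (−0.31) lost theirs.

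Of 41 tested exchange factors and genes that act with them, 5 were higher (12.2%, against 13.1% of all tested entries) and 21 lower (51.2% against 57.7%). After centring 14 were higher (34.1%, against 30.2% of all tested entries) and 7 lower (17.1% against 29.3%). DENND2B (0.562 ± 0.118 to 2.18 ± 0.155 FPKM, log2 fold change 1.80) and WDR41 (2.09 ± 0.372 to 4.85 ± 0.254, 1.19), a partner of C9ORF72, led the higher ones. DENND2A (1.56 ± 0.154 FPKM in epithelial cells, listed at 0 in fiber library 2 and at no more than 0.0948 in the others, −3.46) and DENND11 (2.68 ± 0.248 to 0.586 ± 0.151, −2.04) led the lower ones. Thus DENND2A and DENND2B, exchange factors of one family, changed in opposite directions. Of the same family, DENND2C was lower (−1.58, and −0.98 after centring). DENND2D was not called with the deposited scaling (0.25) and was higher after centring (0.86). C9ORF72 itself was lower (−0.67), but was not called after centring (−0.063). Of 8 GTPase-activating proteins without a matching symbol, none was higher and 7 were lower (87.5%), against 0 and 3 (37.5%) after centring. The ends of the list ran from USP6NL (−1.88) and SGSM1 (−1.71) to GRTP1 (−0.52) and EVI5L (−0.47), the last pair turning to 0.087 and 0.14 after centring. GRTP1 lost its call without epithelial library 1 (−0.51), epithelial library 3 (−0.48) or fiber library 1 (−0.35).

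Of 58 tested effectors, 5 were higher (8.62%, against 13.1% of all tested entries) and 35 lower (60.3% against 57.7%). After centring 21 were higher (36.2%, against 30.2% of all tested entries) and 12 lower (20.7% against 29.3%). FYCO1, a RAB7 effector that moves autophagosomes and is mutated in human congenital cataract, was at 4.73, 5.25 and 4.50 FPKM in epithelial cells and at 8.68, 8.90 and 8.87 in fiber cells (0.86 ± 0.09, adjusted p = 8.3e-05). It rose while RAB7A fell with the deposited scaling, though RAB7A was not called after centring (−0.25). The groups of FYCO1 were well apart. UNC13D, a RAB27 effector of granule release, went from 0.383 ± 0.173 to 2.26 ± 0.338 FPKM (2.35), and LRRK2, the kinase that RAB29 recruits, from 1.80 ± 0.036 to 4.43 ± 0.458 (1.25). MYO5A, a myosin V that RAB27A engages through an adaptor, was at 32.8, 27.9 and 30.2 FPKM in epithelial cells and at 5.06, 3.89 and 5.19 in fiber cells (−2.67 ± 0.13, adjusted p = 2.5e-06). RPH3AL, another effector of secretory RABs, fell from 1.28 ± 0.237 to 0.166 ± 0.0298 FPKM (−2.37).

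The 12 members below the filter were RAB17, RAB20, RAB25, RAB36, RAB37, RAB38, RAB39A, RAB3B, RAB44, RAB7B, RAB3IL1 and TBC1D30, and no test was made on them. RAB17, a RAB of polarized epithelia, was listed at 0 in all 6 libraries. RAB3IL1, an exchange factor of RAB3 and RAB8, came closest to the filter, with 1.03, 0.849 and 0.758 FPKM in epithelial cells and 0.0458, 0.0128 and 0.229 in fiber cells. RAB39A was the highest of them in fiber cells, at 1.27, 0.182 and 0.714 FPKM, and overlapped the epithelial values of up to 0.351. Identical values under another entry occurred for 14 members in all. Without them, 66 tested members gave 11 higher and 32 lower, beside 13.1% higher and 57.7% lower among all tested entries. Those shares include entries with identical values.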

How the data were processed

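Total RNA was isolated by the authors from pooled, microdissected lenses, and stranded total RNA libraries were sequenced. Per the labels, the submitters' processing notes name cutadapt, Bowtie2, HISAT2, StringTie and edgeR, with the build galGal6. The deposited table gives FPKM per gene and library, with 0.0001 in place of 0. The authors' averages, fold change, log2 and p- and q-value columns hold their own comparison and were not used. FPKM give no total depth, so that precision was taken from the 3 replicates of each cell type. The labels do not say whether replicates shared embryos or days.

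Libraries were grouped by the labelled cell type. Linear models with a mean-variance trend were fitted in limma 3.58.1 (R 4.3.3) to log2(FPKM + 0.1), for those 10818 entries whose mean reached 0.5 FPKM, because the edgeR test of the authors needs counts. The Benjamini-Hochberg adjustment ran over all of them, and fold changes of low genes are understated by the pseudocount. The script was tested on simulated data. Alternatives were pseudocounts of 0.01 and 1 FPKM, no filter or a mean of 1 FPKM, 4 scalings (median centring, 75th percentile, quantile normalization, and rescaling without δ-crystallin), no trend, treat, identical entries counted once, a replicate block alone or with centring, and each library left out.

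The members and lists were chosen with earlier results of these data known. Members given in full were those called higher, the 8 largest decreases without overlap, the 6 highest levels, the Warburg Micro genes, up to 5 paralogue pairs with the largest shift, and, per pathway list, the 2 genes at each end among those called with GDI2, CHM and FYCO1. Some items that these rules and lists cover are not reported here. Genes named beside these were chosen after their values were seen. Columns of other samples in the table numbered 0.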

Additional observations from a re-analysis of the deposited data

How the results depend on the processing

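Scaling decided most counts. With median centring the module had 31 genes higher and 10 lower, RAB GTPases 21 and 3, GTPase-activating proteins 8 and 5, and pathway genes outside the name rule 37 and 23. Quantile normalization gave 25 and 14, 18 and 6, 6 lower for GTPase-activating proteins, and 29 and 26. The 75th percentile left 22 module genes, 9 GTPases and 10 GTPase-activating proteins lower, with 19 pathway genes higher and 42 lower. Without δ-crystallin 25 module genes and 10 GTPases were lower and 18 pathway genes higher. Treat gave 5 and 21 for the module, 3 and 7 for GTPases, 2 GTPase-activating proteins higher and 42 pathway genes lower, and a pseudocount of 1 FPKM left 6 GTPases higher. All 14 members called higher kept the call in the 4 scalings, against 9 of the 38 called lower. Over all tested entries, median centring alone kept all 1415 higher calls and 3167 of the 6240 lower calls. The share over all entries was not counted for the other scalings, for treat or for the pseudocount. These counts and the contrast are therefore not read as a trait of the members.

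Single genes that changed sign were RAB40C (0.46 centred, 0.15 at the 75th percentile, 0.51 with quantiles, 0.068 without δ-crystallin), EVI5L (0.14 centred, 0.20 with quantiles), GRTP1 (0.087 and 0.38), TBC1D8B (0.24 and 0.016), RAB3GAP2 (0.13 and 0.013), TBC1D20 (0.26 and 0.25), TBC1D9B (0.36 centred, 0.054 at the 75th percentile), RAB11B (0.12 centred), RAB14 (0.23), RAB2A (0.20) and RAB3GAP1 (0.18), and, with quantiles only, CHM (0.033) and TBC1D12 (0.015). The cause was not tested.

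Omitting 1 library gave 10 to 12 module genes higher and 33 to 41 lower, 6 to 8 and 15 to 17 GTPases, 4 and 14 to 17 GTPase-activating proteins, 11 and 60 to 67 pathway genes, and 16 to 19 paralogue pairs without overlap. Of the calls, 8 of 14 higher and 31 of 38 lower held in all 6 omissions. The share over all entries was not counted for the omissions, so that these counts are not read as a trait of the members. A replicate block gave 13 and 38 module genes, losing RAB6B (adjusted p = 0.073). For the block, alone or with centring, the share over all entries was not counted either. After the mean of its cell type was taken out of each gene, same-numbered libraries correlated at 0.0858, 0.0659 and 0.0666, each library best with its own number. The other combinations of an epithelial and a fiber library gave −0.0495 to −0.0235. Deviations from a mean cancel within a cell type, so that positive values for same-numbered libraries push the other combinations down. The paper describes a pool of lenses per replicate, dissected into both cell types, without saying how library numbers match. The correlations do not settle whether libraries of one number came from the same lenses, and the main fit did not take them as paired. With the block and median centring the module had 30 and 10, GTPases 20 and 3, GTPase-activating proteins 8 and 5 and pathway genes 37 and 24, with RAB40C at 0.46, TBC1D9B at 0.36, TBC1D20 at 0.26, TBC1D8B at 0.24, RAB14 at 0.23, RAB2A at 0.20, RAB3GAP1 at 0.18, EVI5L at 0.14, RAB3GAP2 at 0.13, RAB11B at 0.12 and GRTP1 at 0.087.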
